A study of Homo sapiens with 4 samples.

Results

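The genes described here are 31 members of the p53 program, that is regulators that hold p53 in check and genes that p53 switches on. They were chosen by name from background knowledge of the pathway, by a rule that uses no measured value, although earlier results of these data were known when they were chosen. All 31 were among the 19314 genes listed and among the 16595 genes that had a value above 0 in at least 1 library and could be tested. RNA was sequenced from U87 cells, an established human glioblastoma line, in 4 libraries. The 2 libraries labelled PTP2 came from cells with a knockdown of PTPRN, a receptor-type protein tyrosine phosphatase of secretory granules, and the 2 libraries labelled SCR came from cells with a scrambled hairpin. The study used hairpins on the lentiviral vector pLKO.1, among them shPTPRN-2 and shScramble, and the labels do not say which hairpin the PTP2 libraries carried. The knockdown was made in a population of cells, and nothing in the labels says that libraries of a group came from separate cultures, so p-values measure only the spread between these libraries, which may be technical. Labels name U87 as the cell line, whereas the growth protocol names hCMEC/D3, a brain endothelial line.

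p53 is a transcription factor that is kept low by the ubiquitin ligase MDM2 and its partner MDM4 and that is stabilised when DNA is damaged or growth is disturbed. It then binds pairs of 10-base half-sites near its target genes and raises the expression of inhibitors of the cell cycle, DNA repair factors, death receptors and metabolic enzymes, while many cell cycle genes fall indirectly through p21 and the DREAM repressor complex. U87 cells are known as a line with an intact p53 response and a deletion of the CDKN2A locus.

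The letters of p53 sites were searched in the RefSeq promoter windows of GRCh38.p14, which run from 250 bases before to 50 bases after a transcript start, and 27 of the 31 members had a window. The p53 half-site consensus has 10 bases and reads the same on both strands. An exact half-site was found in 6 of the 27 members, or 22.2%, and in 8.06% of the 27305 genes with a window. Both half-sites, with a spacer of 0 to 13 bases between them, were matched exactly in 1 member, DDB2 (3.7%), and in 0.0366% of all genes. A pair of half-sites with no spacer and at most 2 mismatches, a search added after the data had been seen, was found in AEN, DDB2 and MDM2 (11.1% of the members with a window, against 0.82% of all genes). These shares are descriptions of the letters in short windows and not binding data. The stretches below end in or run past the match, which is in capitals. They were picked with the calls known: 3 belong to genes that were higher in the PTP2 libraries and 2 to genes that were lower. The stretches of EI24, which was also lower, and of SESN1, which was not called, are not printed.
DDB2, chr11:47214909-47214999, plus strand: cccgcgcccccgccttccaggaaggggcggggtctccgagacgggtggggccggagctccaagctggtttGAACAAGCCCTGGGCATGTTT
AEN, chr15:88621236-88621339, plus strand: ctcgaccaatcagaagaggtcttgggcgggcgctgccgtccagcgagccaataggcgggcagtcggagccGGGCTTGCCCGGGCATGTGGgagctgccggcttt
MDM2, chr12:68808853-68808982, plus strand: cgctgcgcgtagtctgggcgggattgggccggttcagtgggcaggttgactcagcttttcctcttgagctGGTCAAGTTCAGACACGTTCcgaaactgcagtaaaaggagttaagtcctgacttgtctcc
PLK2, chr5:58460169-58460288, minus strand: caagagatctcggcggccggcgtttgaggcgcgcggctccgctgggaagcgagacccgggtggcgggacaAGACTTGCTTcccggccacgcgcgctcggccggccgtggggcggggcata
FDXR, chr17:74872995-74873075, minus strand: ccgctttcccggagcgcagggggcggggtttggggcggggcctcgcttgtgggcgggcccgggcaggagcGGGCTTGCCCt

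The match in DDB2 lies 6 to 26 bases after the transcript start and is 21 bases long. In AEN the match ends 15 bases before the start, with 2 mismatches to the consensus. In MDM2, also with 2 mismatches, it ends 75 bases before a transcript start that lies inside the gene. The gene itself begins upstream, at position 68808172. PLK2 holds 1 half-site that ends 123 bases before the start, and FDXR holds 1 that ends 2 bases before it. EI24 and SESN1 had 1 half-site each as well, and no window was given for GADD45A, PHLDA3, RRM2B or TP53INP1.

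**Figure D1:**
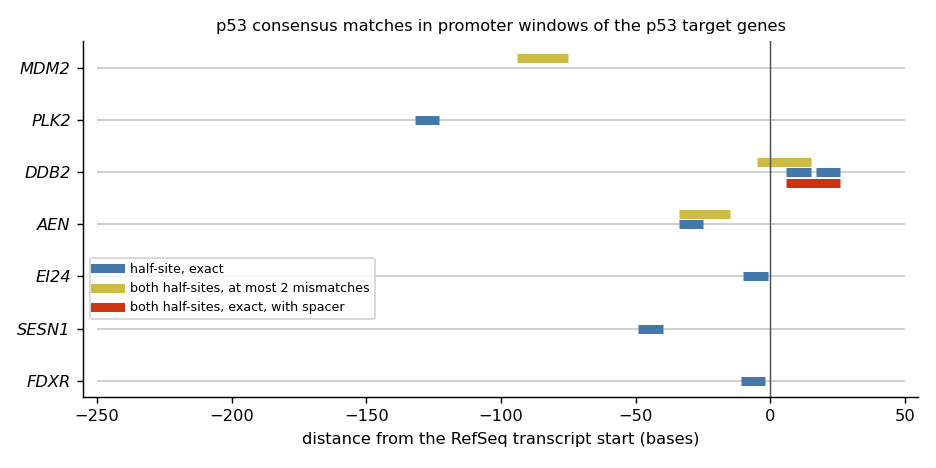
Positions of p53 consensus matches in the promoter windows of the 7 members that had one, in bases from the RefSeq transcript start (vertical line at 0); blue bars are exact half-sites, yellow bars are pairs of half-sites with at most 2 mismatches, and the red bar is the exact pair with a spacer. DDB2 alone carries all 3 kinds, and most matches lie within 50 bases of the start. For MDM2 this start lies inside the gene.

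PTPRN, the targeted gene, stood at 12.09 and 11.68 FPKM (fragments counted on a transcript, scaled to its length and to the size of the library) in the PTP2 libraries and at 84.84 and 85.02 FPKM in the SCR libraries, a log2 fold change of -2.74 (SE 0.033, adjusted p = 0.000148). All log2 fold changes here are PTP2 minus SCR on the log2(FPKM + 1) scale, which understates the change of low genes, and all adjusted p-values come from limma over the 16595 genes. The hairpin shPTPRN-2, which the PTP2 libraries may have carried, targets aactgcctccaagggcatatt, which matched PTPRN transcripts with 0 mismatches. Against 298 transcripts of the 31 members it had 0 exact matches, and the nearest had 6 mismatches, in DDB2. For shScramble there were also 0 exact matches, and the nearest had 6 mismatches, in TIGAR. Mismatches were counted over all 21 bases, so this search cannot show whether a shorter part of a hairpin matches a member. The other PTPRN hairpin of the study was not searched. Between 17800000 and 19400000 reads per library lay behind these values, as estimated from the size of 1 read among low FPKM values.

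Of the 31 members, 11 were higher in the PTP2 libraries at an adjusted p of at most 0.05 (35.5%), 11 were lower (35.5%) and 9 were not called. Across all genes tested, 30.8% were higher and 27.1% were lower, so the members' shares in both directions were close to those of all genes. The median log2 fold change of the members was -0.06, and their median change without regard to sign was 0.33, against 0.01 and 0.25 over all genes and 0.06 and 0.38 over the 11272 genes with a mean of at least 1 FPKM. The groups did not overlap in 27 of the 31 members, against 75.6% of all genes tested, many of them near 0. At a mean of at least 1 FPKM, they did not overlap in 25 of 28 members and in 10058 of 11272 genes. At that level 35.7% of members were called higher and 39.3% lower, against 41.1% and 33.5% of genes. At the stricter thresholds of the study, an adjusted p of at most 0.001 and a fold change of at least 2, EDA2R and GADD45A were higher (against 2.63% of all genes) and PLK2 and CCNG2 were lower (against 4.06%). With 1 library left out and the lone library of its group assumed to vary like the other group, members called higher numbered 7 without PTP2 replicate 1, PTP2 replicate 2 or SCR replicate 1 and 6 without SCR replicate 2. Members called lower numbered 6 and 5 without PTP2 replicates 1 and 2 and 9 without either SCR replicate, and the stricter thresholds then called 0 members with any library left out.

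**Figure D2:**
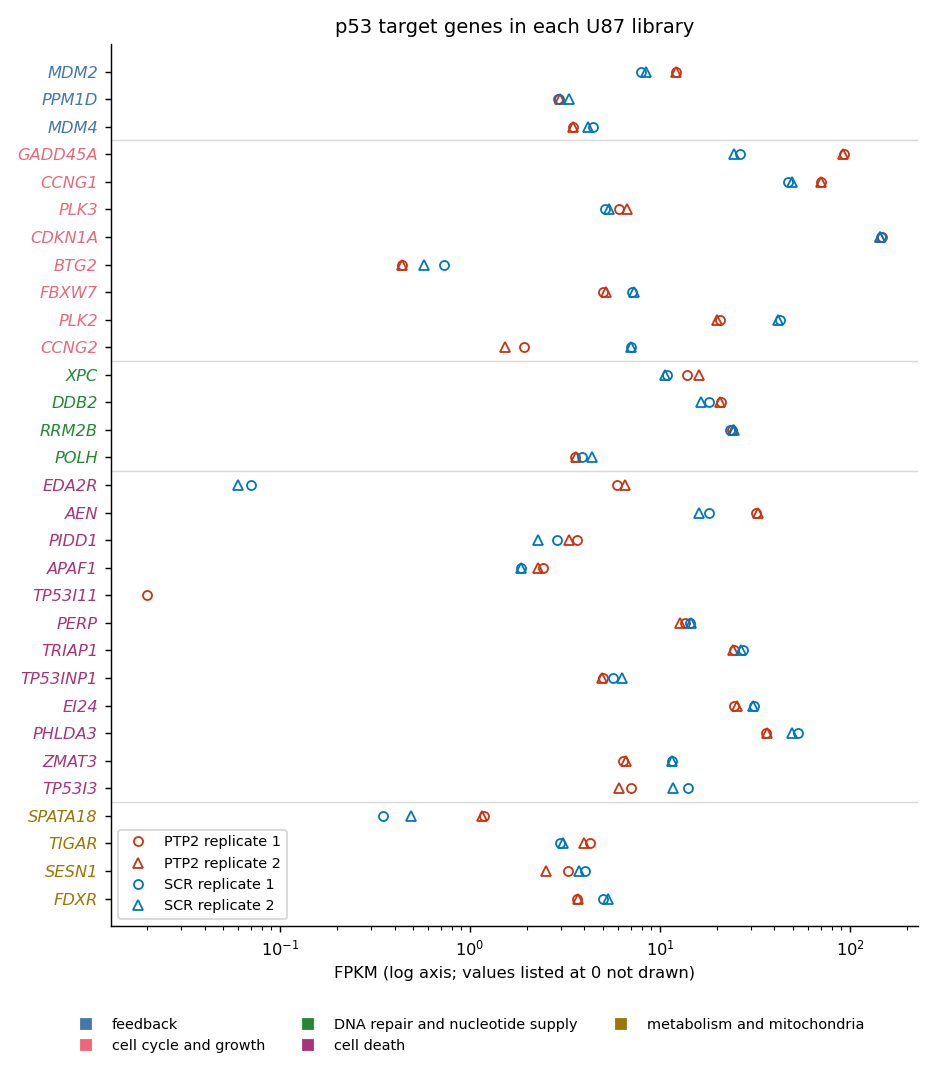
FPKM of each of the 31 p53 program genes in the 4 libraries on a log axis, grouped by role, with 1 point per library and values of 0 not drawn. CDKN1A is the highest of the members at 143 to 147 FPKM in all 4 libraries, and EDA2R shows the widest gap, from at most 0.07 in the SCR libraries to at least 5.96 in the PTP2 libraries.

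**Figure D3:**
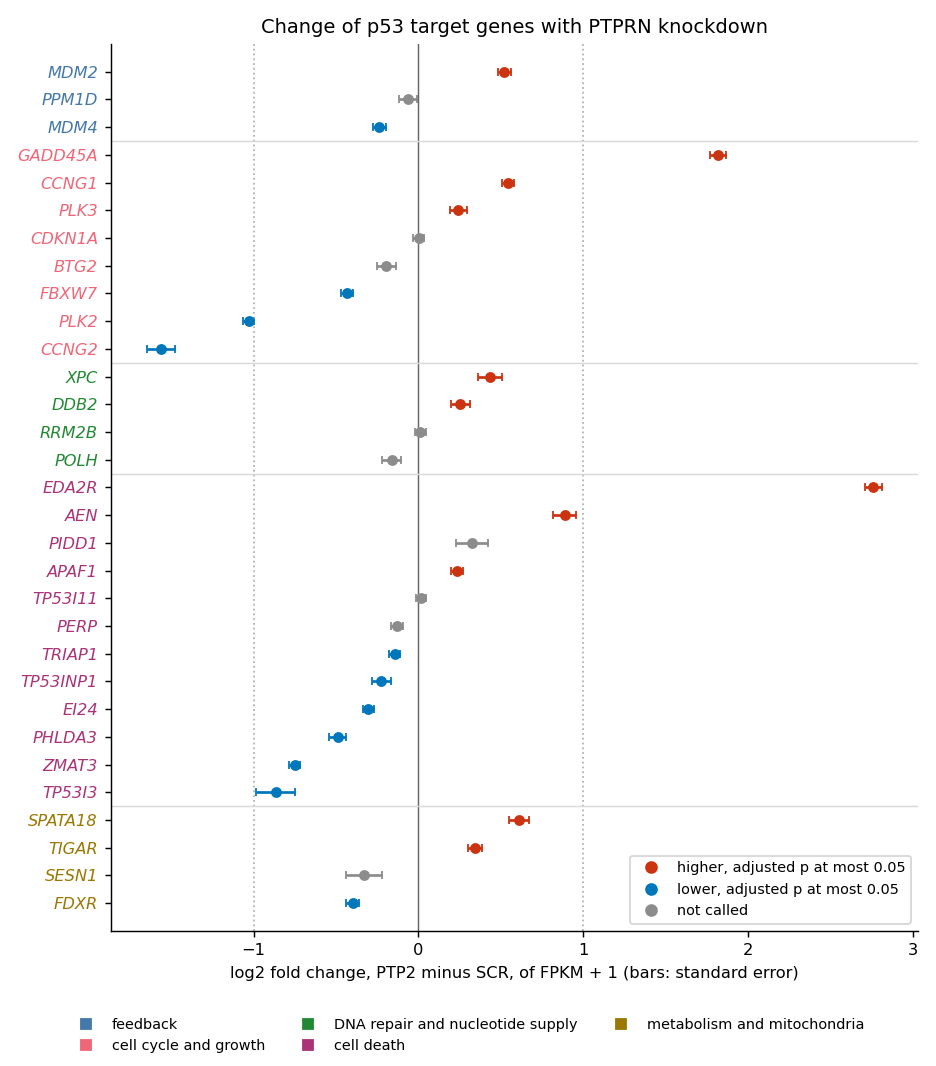
Log2 fold change (PTP2 minus SCR, log2(FPKM + 1) scale) of each member with its standard error, grouped by role and coloured by its call at an adjusted p of 0.05, with dotted lines at a fold change of 2. Changes run from 2.76 (EDA2R) to -1.56 (CCNG2), and 21 of the 31 members lie within 0.5 of 0.

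The feedback arm moved in opposite directions. MDM2, the ligase that marks p53 for degradation and is itself a p53 target, was at 12.18 and 12.20 FPKM in the PTP2 libraries and at 7.94 and 8.45 FPKM in the SCR libraries. It rose, with a log2 fold change of 0.52 (SE 0.040, adjusted p = 0.00156). MDM4, the partner that masks the p53 activation domain, was at 3.50 and 3.48 FPKM against 4.41 and 4.17 FPKM. Its log2 fold change was -0.24 (SE 0.037, adjusted p = 0.00947), a fall whose call was lost without PTP2 replicate 1 or 2 (adjusted p = 0.0837 and 0.0864). PPM1D, the phosphatase that switches off p53 and its activating kinases, was at 2.91 and 2.98 FPKM against 2.95 and 3.31 FPKM. Its groups overlapped, and no change was called (log2 fold change -0.06, SE 0.055, adjusted p = 0.391). As in any bulk sample, a change in the share of cells that use a gene and a change in RNA per cell cannot be told apart.

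Among the 8 members grouped under cell cycle and growth, 3 rose (37.5%), 3 fell (37.5%) and 2 were not called. Over all genes tested, 30.8% were higher and 27.1% were lower. CDKN1A encodes p21, the inhibitor of cyclin-dependent kinases through which p53 stops the cell cycle. Its level was 146.79 and 143.06 FPKM in the PTP2 libraries and 145.76 and 143.93 FPKM in the SCR libraries. It ranked 451st of the genes tested by mean level, its groups overlapped, and its log2 fold change was 0.00 (SE 0.032, adjusted p = 0.998). That value ranged from -0.14 to 0.13 over the alternatives, called lower with quantile normalization (adjusted p = 0.0217) and higher with GC and length trends removed (adjusted p = 0.0341).

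GADD45A, a stress protein linked to growth arrest and DNA repair, was at 93.18 and 91.47 FPKM against 26.41 and 24.47 FPKM. The groups were far apart, and the log2 fold change was 1.82 (SE 0.049, adjusted p = 0.000304). CCNG1, cyclin G1, which brings a phosphatase to MDM2, was at 70.19 and 70.69 FPKM against 46.94 and 49.21 FPKM. Its rise was 0.54 on the log2 scale (SE 0.037, adjusted p = 0.00119), and 0.24 once GC and length trends had been removed. PLK3, a stress-activated polo-like kinase, rose by 0.24 (adjusted p = 0.0235), a call lost without any 1 of the 4 libraries (adjusted p from 0.0539 to 0.178), and by 0.45 with GC and length trends removed.

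CCNG2, cyclin G2, an unconventional cyclin associated with cell cycle arrest, showed the largest fall among the members. It was at 1.93 and 1.52 FPKM in the PTP2 libraries and at 6.99 and 7.03 FPKM in the SCR libraries, a log2 fold change of -1.56 (SE 0.085, adjusted p = 0.000744). The SCR mean was 4.06 times the PTP2 mean. CCNG1 and CCNG2 therefore moved in opposite directions. PLK2, another polo-like kinase, was at 20.58 and 19.83 FPKM against 42.57 and 41.97 FPKM, with a log2 fold change of -1.03 (SE 0.034, adjusted p = 0.000375). Its half-site is printed above. FBXW7, the substrate receptor of a ubiquitin ligase for cyclin E and MYC, fell as well, from 7.12 and 7.33 FPKM in the SCR libraries to 5.0 and 5.20 FPKM (log2 fold change -0.43, SE 0.036, adjusted p = 0.00179). BTG2, an antiproliferative protein, was low at 0.44 and 0.44 FPKM against 0.73 and 0.57 FPKM and was not called (adjusted p = 0.0552).

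Of the 4 members that serve DNA repair and nucleotide supply, 2 were higher, 0 were lower and 2 were not called. The shares over all genes tested were 30.8% higher and 27.1% lower. Both members called are damage sensors of nucleotide excision repair. XPC was at 13.93 and 15.94 FPKM against 10.93 and 10.65 FPKM (log2 fold change 0.43, SE 0.073, adjusted p = 0.0120). DDB2, whose window holds the exact p53 site, was at 21.02 and 20.62 FPKM against 18.15 and 16.45 FPKM (log2 fold change 0.26, SE 0.057, adjusted p = 0.0257). Neither call held in every leave-out: that of XPC was lost without SCR replicate 1 or 2 (adjusted p = 0.134 and 0.147), and that of DDB2 without PTP2 replicate 1, PTP2 replicate 2 or SCR replicate 2 (adjusted p = 0.186, 0.163 and 0.0530). RRM2B, the p53-induced subunit of ribonucleotide reductase, lay at 23.99 and 24.28 FPKM against 23.47 and 24.40 FPKM, with overlapping groups (log2 fold change 0.01, SE 0.035, adjusted p = 0.803). With GC and length trends removed it was called lower (-0.18, adjusted p = 0.00892). POLH, a polymerase that copies past damaged bases, was at 3.57 and 3.6 FPKM against 3.89 and 4.38 FPKM and was not called (adjusted p = 0.0848). For XPC, 30.4% of the exonic bases are shared with genes on the other strand, LSM3 among them, and whether strand was used in counting is not given in the sources used here, so its value is uncertain.

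Cell death was the largest role, with 12 members, of which 3 rose (25.0%), 6 fell (50.0%) and 3 were not called. Beside these stand 30.8% higher and 27.1% lower over all genes tested. Whether this role differs from all genes was not tested. EDA2R, a receptor of the TNF receptor family that binds the ectodysplasin isoform A2, had the largest change of all members. It was at 5.96 and 6.50 FPKM in the PTP2 libraries and at 0.07 and 0.06 FPKM in the SCR libraries. These values correspond to an estimated 768 reads summed over the PTP2 libraries and 8 over the SCR libraries, so the gene was close to the floor of detection without the knockdown. The log2 fold change was 2.76 (SE 0.049, adjusted p = 0.000184), and 5.26 with a pseudocount of 0.1 in place of 1. The ratio of mean FPKM was 95.8, and the ratio of estimated read rates was 99.8 with a 95% interval of 50.4 to 232, which covers counting error only.

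AEN, a nuclease that is induced by p53 and enhances apoptosis, was at 32.15 and 32.62 FPKM against 18.13 and 16.03 FPKM. It rose by 0.89 on the log2 scale (SE 0.068, adjusted p = 0.00151), with an adjusted p of 0.0502 without PTP2 replicate 1 and of 0.0517 without PTP2 replicate 2. APAF1, the scaffold of the apoptosome, was at 2.43 and 2.29 FPKM against 1.85 and 1.86 FPKM. Its rise of 0.23 (SE 0.036, adjusted p = 0.00875) was not called without SCR replicate 1 or 2 (adjusted p = 0.0842 and 0.0813). PIDD1, the scaffold that activates caspase-2, did not overlap between groups, at 3.64 and 3.31 FPKM against 2.86 and 2.29 FPKM, and was not called (log2 fold change 0.33, SE 0.097, adjusted p = 0.0537).

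The members of this role that fell span a quinone oxidoreductase, an RNA-binding protein and a brake on AKT. TP53I3, the oxidoreductase also known as PIG3, was at 7.05 and 6.07 FPKM in the PTP2 libraries and at 13.98 and 11.63 FPKM in the SCR libraries. The groups were well apart but the libraries within each group were also spread, and the log2 fold change of -0.87 (SE 0.12, adjusted p = 0.00631) was not called without any 1 of the 4 libraries (adjusted p from 0.0555 to 0.0918). ZMAT3, a zinc finger protein that binds RNA, was at 6.36 and 6.60 FPKM against 11.59 and 11.56 FPKM, with a log2 fold change of -0.75 (SE 0.033, adjusted p = 0.000527). PHLDA3, which competes with AKT for membrane lipids, was at 36.16 and 36.36 FPKM against 53.49 and 49.25 FPKM, with a log2 fold change of -0.49 (SE 0.051, adjusted p = 0.00320). With GC and length trends removed it was -0.29. Its call was lost without PTP2 replicate 1 or 2 (adjusted p = 0.0670 and 0.0661), and 19.1% of its exonic bases are shared with another annotated gene on the same strand, so its value is uncertain.

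The remaining falls were small. EI24, a membrane protein of the endoplasmic reticulum, was at 24.43 and 25.51 FPKM against 31.16 and 30.89 FPKM (log2 fold change -0.30, SE 0.036, adjusted p = 0.00442, and not called without SCR replicate 1 or 2, at 0.0639 and 0.0606). TP53INP1, a nuclear and autophagic stress protein, was at 5.0 and 4.93 FPKM against 5.65 and 6.30 FPKM. TRIAP1, an inhibitor of apoptosis in mitochondria, was at 24.41 and 24.30 FPKM against 27.48 and 26.53 FPKM. Log2 fold changes were -0.22 for TP53INP1 (adjusted p = 0.0359) and -0.14 for TRIAP1 (adjusted p = 0.0280), and each was lost in 3 of the 4 leave-outs and with the replicate number as a block (adjusted p = 0.0615 and 0.0523) or a pseudocount of 0.1 (0.0588 and 0.0634). With GC and length trends removed, the change of TRIAP1 was -0.47. PERP, a desmosomal membrane protein, was at 13.45 and 12.75 FPKM against 14.32 and 14.54 FPKM and was not called (adjusted p = 0.0548). TP53I11 was listed at 0.02 FPKM in PTP2 replicate 1, which is about 1 read, and at 0 in the other 3 libraries, so no fold change is given.

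Of the 4 members of metabolism and mitochondria, 2 rose, 1 fell and 1 was not called, beside 30.8% higher and 27.1% lower over all genes. SPATA18, which takes part in the quality control of mitochondria, was at 1.19 and 1.15 FPKM against 0.35 and 0.49 FPKM. Its log2 fold change was 0.61 (SE 0.060, adjusted p = 0.00270), and the ratio of mean FPKM was 2.79. With a pseudocount of 0.1 the log2 fold change was 1.30. TIGAR, a phosphatase that slows glycolysis, was at 4.26 and 3.99 FPKM against 2.97 and 3.10 FPKM (log2 fold change 0.34, SE 0.043, adjusted p = 0.00509). FDXR, the ferredoxin reductase of mitochondria, moved the other way, at 3.64 and 3.70 FPKM against 4.99 and 5.33 FPKM (log2 fold change -0.40, SE 0.041, adjusted p = 0.00305, and -0.20 with GC and length trends removed). SESN1, a stress protein that restrains mTORC1, was at 3.26 and 2.52 FPKM against 4.01 and 3.73 FPKM and was not called (log2 fold change -0.33, SE 0.11, adjusted p = 0.0702). SPATA18 and FDXR were not called without PTP2 replicate 1 or 2 (adjusted p from 0.0552 to 0.0653), nor was TIGAR without SCR replicate 1 or 2 (0.0744 and 0.0631). TIGAR shares 45.6% of its exonic bases with another annotated gene on the same strand, so its value is uncertain.

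Members with any p53 consensus match in their window did not share a direction, but the matches were of unlike kinds. DDB2, AEN and MDM2, with a pair of half-sites, were higher. Of those with a single half-site, EI24, FDXR and PLK2 were lower and SESN1 was not called. The members are few and the search for inexact pairs was added later, so a link between kind and direction was not tested. Among members with large changes, EDA2R, CCNG2, TP53I3 and ZMAT3 had a window with no match, which says only that the letters were not in that window.

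Each call above was also made under 12 alternative settings, for 370 member values in all. The values kept direction and side of the threshold in 301 of them, lost the call in 40, gained it in 20 and changed sign in 9. All 9 changes of sign fell on CDKN1A, RRM2B and PPM1D, the members closest to 0 among those with a value above 0 in every library. The calls gained were mostly those of PIDD1, PERP and SESN1, in 4 settings each, and of BTG2 and POLH, in 3 settings each. The changes of EDA2R ranged from 2.68 to 5.26, of GADD45A from 1.68 to 1.87, of PLK2 from -1.12 to -1.0, of CCNG2 from -1.97 to -1.45 and of MDM2 from 0.48 to 0.57.

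**Figure D4:**
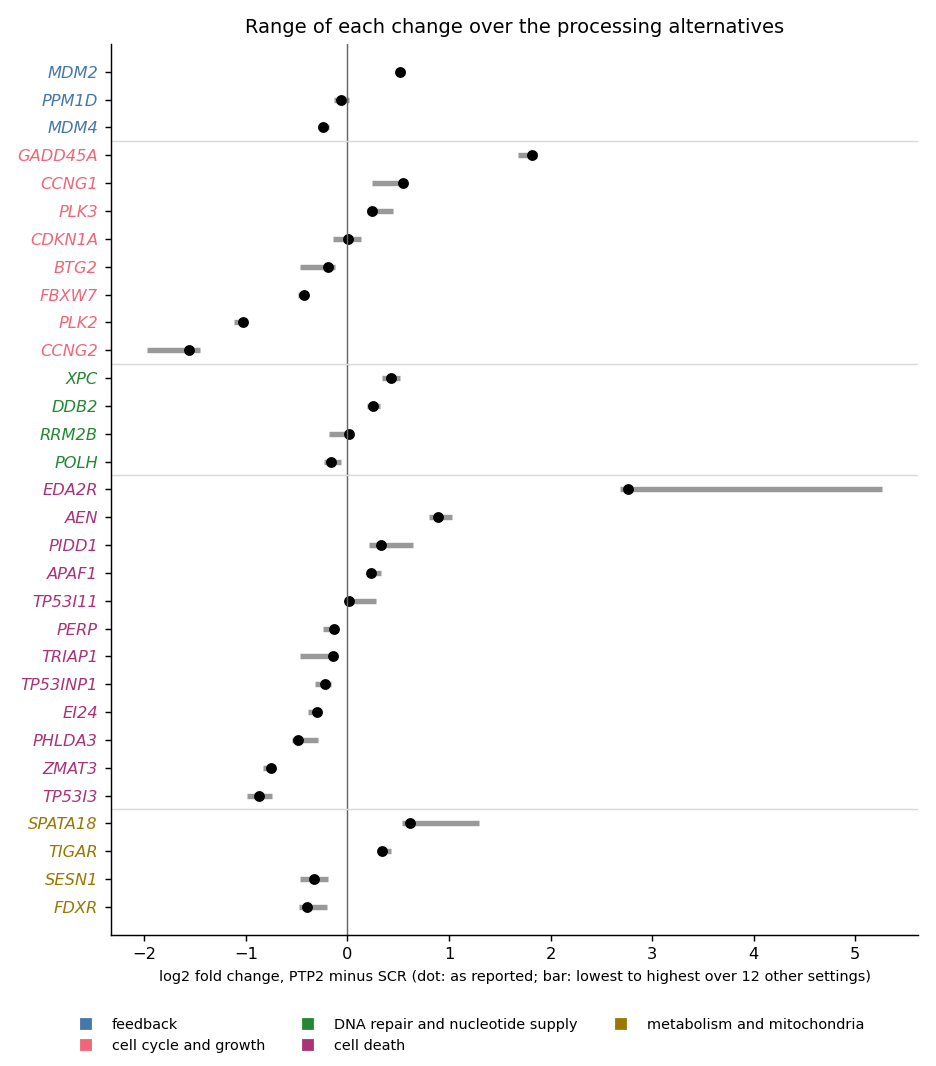
Log2 fold change (PTP2 minus SCR, log2 scale) of each of the 31 members as reported (dot) and its lowest and highest value over 12 other settings of pseudocount, filter, scaling, normalization, spread, replicate block, GC and length trends and libraries left out (bar). EDA2R moves most, from 2.68 to 5.26, and the bars of CDKN1A, RRM2B and PPM1D cross 0.

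The wider pathway was described with lists written from background knowledge. Of 55 other p53 targets, 17 were higher, 22 were lower and 16 were not called, with a median log2 fold change of -0.02. The share called higher was close to the 30.8% of all genes tested, and the share called lower was above their 27.1%. Among genes with a mean of at least 1 FPKM, 41.1% were higher and 33.5% were lower. Whether this list differs from all genes was not tested. LIF, a cytokine of the interleukin 6 family, was at 63.35 and 66.43 FPKM against 10.35 and 10.34 FPKM (log2 fold change 2.54, adjusted p = 0.000155). TNFAIP8, a regulator of apoptosis, and PTP4A1, a phosphatase, also rose, by 0.74 and 0.66 (adjusted p = 0.00151 and 0.00132). The largest falls were those of PLXNB2, a semaphorin receptor (11.57 and 11.23 against 35.36 and 33.76 FPKM, log2 fold change -1.52, adjusted p = 0.000290), KRT8, a keratin (-1.26, adjusted p = 0.000343), and EPHA2, an ephrin receptor (-1.18, adjusted p = 0.000421). With 1 library left out, 11 targets were higher without SCR replicate 2, and 13 were lower without PTP2 replicate 1 and 14 without either SCR replicate, and TNFAIP8 was not called without SCR replicate 2 (adjusted p = 0.0522).

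Of 32 regulators of p53, 14 were higher (43.8%), 8 were lower (25.0%) and 10 were not called, with a median of 0.12. The shares were 30.8% and 27.1% over all genes, and 41.1% and 33.5% at a mean of at least 1 FPKM. RPL11, a ribosomal protein that binds and blocks MDM2, was at 1116.25 and 1085.46 FPKM against 583.21 and 597.56 FPKM (log2 fold change 0.90, adjusted p = 0.000431, and 0.53 with quantile normalization). CHEK1, a checkpoint kinase, rose by 1.04 (adjusted p = 0.000751), and HIPK2, a kinase that phosphorylates p53, by 0.75 (adjusted p = 0.00213). DAXX, a chaperone that stabilises MDM2, fell from 62.84 and 64.71 FPKM in the SCR libraries to 34.96 and 35.65 FPKM (-0.84, adjusted p = 0.000464). HUWE1, a ubiquitin ligase for p53, and PPP1R13B, a cofactor that steers p53 to death genes, fell with log2 fold changes of -0.48 each (adjusted p = 0.00236 and 0.00645), or -0.26 and -0.31 with GC and length trends removed. With 1 library left out, 7 regulators were higher without either PTP2 replicate, and 4 and 5 were lower without PTP2 replicates 1 and 2 and 3 and 4 without SCR replicates 1 and 2. HIPK2 was not called without SCR replicate 1 (adjusted p = 0.0506), nor PPP1R13B without any 1 of the 4 libraries (adjusted p from 0.0567 to 0.0827).

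The cell cycle genes that p53 represses through p21 and DREAM went almost all one way, and a rise of cell cycle genes was known from earlier results of these data when their list was written, so the list is no independent evidence of that direction. Of 43 genes, 41 were higher, 0 were lower and 2, CENPF and TOP2A, were not called by limma, and 0 were lower at an unadjusted p under 0.05. Their median log2 fold change was 0.85, beside 0.01 over all genes and -0.06 over the members. The share called higher was 95.3%, beside 30.8% over all genes and 41.1% over genes with a mean of at least 1 FPKM. CDC25A, a phosphatase that activates cyclin-dependent kinases, was at 10.53 and 10.90 FPKM against 2.90 and 2.96 FPKM (1.58, adjusted p = 0.000242). HMMR, a mitotic spindle protein, and AURKA, a mitotic kinase, rose by 1.53 and 1.44 (adjusted p = 0.000356 and 0.000310). Over the same libraries CDKN1A differed by 0.00.

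The p53 signaling pathway as assigned in the deposited annotation held 109 genes, of which 100 were tested and 16 are members. Of the 84 others, 30 were higher (35.7%), 23 were lower (27.4%) and 31 were not called, with a median of 0.03. These shares were close to the 30.8% and 27.1% of all genes tested. AIFM2, a ferroptosis suppressor, was at 17.96 and 18.13 FPKM against 4.85 and 4.70 FPKM (log2 fold change 1.72, adjusted p = 0.000194), and CCNB1, the mitotic cyclin B1, at 103.53 and 97.96 FPKM against 40.06 and 40.67 FPKM (1.30, adjusted p = 0.000354). IGFBP1, which binds insulin-like growth factors, was at 1.8 and 1.97 FPKM against 0.19 and 0.52 FPKM. The SCR values correspond to an estimated 6 and 15 reads. IGFBP1 rose by 1.10 (adjusted p = 0.00498), a call lost without PTP2 replicate 1 or 2, and by 2.23 with a pseudocount of 0.1. IGFBP4, of the same family, was at 4.57 and 4.68 FPKM against 81.43 and 77.65 FPKM (-3.84, adjusted p = 0.000127), and THBS1, an inhibitor of angiogenesis, at 0.73 and 0.75 FPKM against 7.42 and 8.06 FPKM (-2.33, adjusted p = 0.000239). This pathway list shares 9 genes with the other targets, 4 with the regulators and 5 with the cell cycle genes, and CHEK1 stands in both of the last named, so these counts are not separate. Without PTP2 replicate 2, 19 of the 84 genes were higher.

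**Figure D5:**
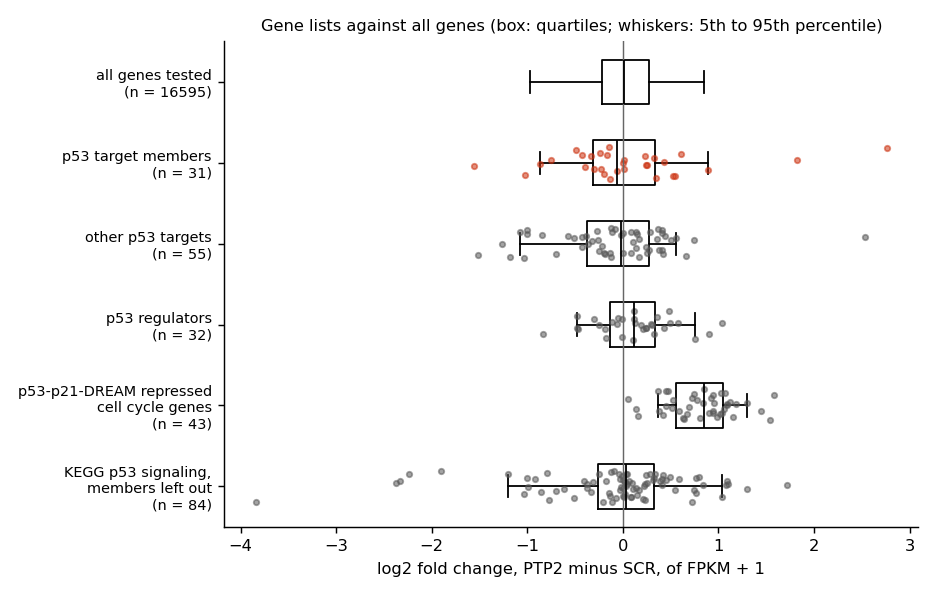
Log2 fold change (PTP2 minus SCR, log2(FPKM + 1) scale) of all genes tested, the 31 members and the 4 other lists, with boxes at the quartiles, a line at the median, whiskers from the 5th to the 95th percentile and 1 point per gene except for all genes. The medians of all genes (0.01) and of the members (-0.06) lie near 0, whereas that of the cell cycle genes lies at 0.85.

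The label U87 was checked against marker genes. Of 12 measured glial and U87 markers, 6 reached 10 FPKM (NES, VIM, CD44, CHI3L1, TNC and EGFR), with S100B under 0.1 and GFAP at 0.55 or less. Their summed level was 5400 and 5200 FPKM in the PTP2 libraries against 2960 and 2880 FPKM, mostly VIM. The markers did not move together, with 5 higher (41.7%), 4 lower (33.3%) and 3 not called. The shares over all genes tested were 30.8% higher and 27.1% lower. VIM and CD44 rose (log2 fold changes 1.25 and 1.05), as did FABP7, PDGFRA and OLIG2 (0.81, 0.61 and 0.42). The last 3 were low, at 1.65 FPKM or less in every library. NES, CHI3L1, TNC and GFAP fell (-1.78, -1.55, -1.37 and -0.37). The part of these markers in the members' changes was not tested. For the endothelial line named in the growth protocol, 0 of 12 markers reached 10 FPKM, and they summed to 4.29 to 5.16 FPKM, with CDH5, TIE1 and CLDN5 under 0.1, and of the CDKN2A locus 2 of 4 genes had values, which summed to 0.19 to 0.34 FPKM. Of 8 measured myeloid markers CD68 alone reached 10 FPKM (summed level 364 and 346 against 238 and 238), and of 10 measured epithelial markers 0 did.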

How the data were processed

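Libraries were single-end reads of 50 bases from a BGISEQ-500. The authors deposited FPKM values per gene and library in 2 tables, and 0 of 66380 values differed between them. The submitters' processing notes name HISAT2 2.1.0 and hg19, but all 31 members and 96.9% of 19257 matched genes lay at RefSeq positions on GRCh38, so GRCh38 positions were used. The deposited tables also hold the authors' own fold changes and p-values, which were not used.

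The 16595 genes that were above 0 in at least 1 library entered limma 3.58.1 (R 4.3.3, lmFit and eBayes) on log2(FPKM + 1), with group as the only term, 3.72 degrees of freedom and Benjamini-Hochberg adjustment over all genes. No read counts were given, so no count test was run. An exact permutation test of 2 against 2 libraries cannot go below p = 0.333. Same-numbered libraries did not deviate together (correlation 0.064), so replicate numbers were not taken as pairs.

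The members and lists, among them the marker lists of glial, CDKN2A locus, endothelial, myeloid and epithelial genes, were chosen with earlier results of these data known. The rule for named genes picked 13 members, namely those past the stricter thresholds, the 10 with the largest called change at a mean of at least 1 FPKM without overlap, the 3 highest expressed, and CDKN1A, MDM2, MDM4 and PPM1D. The other members were given values where their roles were described. Of each other list at most 3 genes per direction were named by the same limits. A gene picked by this rule is not reported here. Depth was estimated from steps among low FPKM values, of which 87.6% to 93.3% came within 0.15 of whole reads, and intervals cover counting error only. Alternatives were the pseudocount, a filter, scaling, quantile normalization, a shared trend, GC and length, the replicate block and each library left out.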

Additional observations from a re-analysis of the deposited data

How the results depend on the processing

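Calls at an adjusted p of 0.05 lose precision when a group is left with 1 library. With 1 library left out, genes called higher numbered 3275 to 3375 and lower 2884 to 2957, members called higher 6 to 7 and lower 5 to 9, other p53 targets higher 11 to 13 and lower 13 to 15, regulators higher 7 to 10 and lower 3 to 5, cell cycle genes higher 37 to 40, and the other genes of the p53 signaling pathway higher 19 to 22. With a pseudocount of 0.1, regulators called lower numbered 5. At the stricter thresholds limma called 0 genes and 0 members in either direction with a pseudocount of 0.1, with the replicate block and with any library left out. At an unadjusted p under 0.05 and a fold change of at least 2, members then numbered 3 higher and 2 lower with the pseudocount and 2 higher and 2 lower in the other fits, and genes numbered 998 and 1485 with the pseudocount, 510 and 786 with the block, and 504 to 517 and 782 to 793 with a library left out. A pseudocount of 0.1 with a shared trend, chosen after seeing the data, left 1 member lower at these thresholds.

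The replicate block called 12 members higher at 0.05, lost the calls of TRIAP1 and TP53INP1 and gained those of PIDD1 and SESN1. Same-numbered libraries share only a number.

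Changes of sign touched 3 members. PPM1D was at 0.020 with quantile normalization. CDKN1A was at -0.144 with quantile normalization, -0.046 with median-ratio scaling and -0.018 to 0.019 with a library left out. RRM2B was at -0.051, -0.034 and -0.181 with quantile normalization, median-ratio scaling and GC and length trends removed, and at -0.015 to 0.039 with a library left out. Of 252 values of 21 other named genes, 244 kept direction and call and 8 lost the call. The cause was not tested in any of these cases. At this depth EDA2R and IGFBP1 in the SCR libraries, SPATA18, BTG2 and TP53I11 rest on few reads.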
